A study of Oryza sativa with 12 samples.

Results

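The genes described here are the AP2/ERF transcription factors of rice roots, followed in wild-type seedlings and in seedlings that overexpress 1 further member of the family, OsERF106MZ. They were chosen by the wording of the deposited gene descriptions. Of 24922 genes listed at both NaCl levels, 78 had AP2, ERF or DREB in the description, with the overexpressed gene left out. The description of 61 of these names an AP2/ERF protein, and these 61 are the members counted below. The other 17 carry the letters in another name, such as the PAP2 phosphatases, the HAP2 subunits of NF-Y, the VAP27 proteins and the AP2 adaptins, and are counted apart.

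Roots of 7-day-old seedlings were collected after 24 h in medium with 0 or 150 mM NaCl. The wild type was the japonica cultivar Tainung 67 (TNG67). The second genotype was OE1, a single transgenic line in the TNG67 background that carries OsERF106MZ behind the 35S promoter, which is active in most cell types. The 4 groups (each genotype at each NaCl level) held 3 libraries each, every library being a pool of several seedlings. The sample labels name roots and the methods name belowground tissue, whereas the design text of the record names terrestrial parts.

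AP2/ERF proteins are plant transcription factors that bind DNA through the AP2 domain. ERF-type members typically bind the GCC box of ethylene- and defence-responsive promoters, DREB-type members bind the dehydration-responsive element of drought, cold and salt genes, and members with a pair of AP2 domains act mainly in meristems, flowers and seeds. Some members are activators, whereas others carry an EAR motif and repress their targets. Many genes of the family respond quickly to salt, drought, wounding or hormones in roots.

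The overexpressed gene followed the genotype labels. Without salt, OsERF106MZ (Os08g0537900) averaged 876 ± 112 normalized counts in TNG67 against 9840 ± 615 in OE1 (SD, n = 3), and with salt 723 ± 54.6 against 9934 ± 531 (SD, n = 3). Between 16326661 and 22426883 reads per library were recovered from the values, with a median of 17756894. Of 5 root marker genes, 4 were listed at both NaCl levels, and none was at 0. Their summed normalized count ranged from 52272 to 63528 in TNG67 and from 63372 to 65005 in OE1 at 0 mM NaCl, and from 10968 to 12922 in TNG67 and from 20094 to 24736 in OE1 at 150 mM NaCl. 1 of these 4, the ammonium transporter gene Os02g0620500, adds little to the sum. Its means at 0 and 150 mM NaCl were 6.88 and 6.99 in TNG67 and 7.36 and 16.7 in OE1. Of 4 green-shoot markers, 2 chlorophyll a/b binding protein genes were listed at both levels and neither was at 0. Their sum ranged from 3481 to 4669 in TNG67 and from 1407 to 2239 in OE1 at 0 mM NaCl, and from 81.9 to 128 and from 102 to 177 in the same genotypes at 150 mM NaCl. These summed marker levels moved with NaCl, and with genotype as well. The green-shoot sum differed at 0 mM NaCl (lower in OE1) and the root sum at 150 mM NaCl (higher in OE1), without overlap between the genotypes. The part of these marker levels in the results below, the OE1 comparison under salt and the difference of the NaCl responses included, was not tested.

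The 61 members made up a small share of the reads. They took 0.211% of the reads in TNG67 and 0.215% in OE1 at 0 mM NaCl, and 0.189% and 0.204% at 150 mM NaCl, with SDs between 0.00354% and 0.00867% (n = 3). Treated and untreated libraries did not overlap in TNG67 (0.183% to 0.196% against 0.205% to 0.22%) and overlapped in OE1. This share weights members by their reads. Os05g0121600, the member with the most reads, went from a mean normalized count of 9050 to 5265 in TNG67. By the test given below, 13 members rose and 6 fell with NaCl in TNG67. Mean normalized counts over the 12 libraries ran from 6.07 to 6829 with a median of 184. For 12 members the mean was below 20, for 42 it lay between 20 and 1000, and for 7 it was above 1000. Normalized counts are not corrected for transcript length, so levels are compared between libraries and not between genes.

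**Figure D1:**
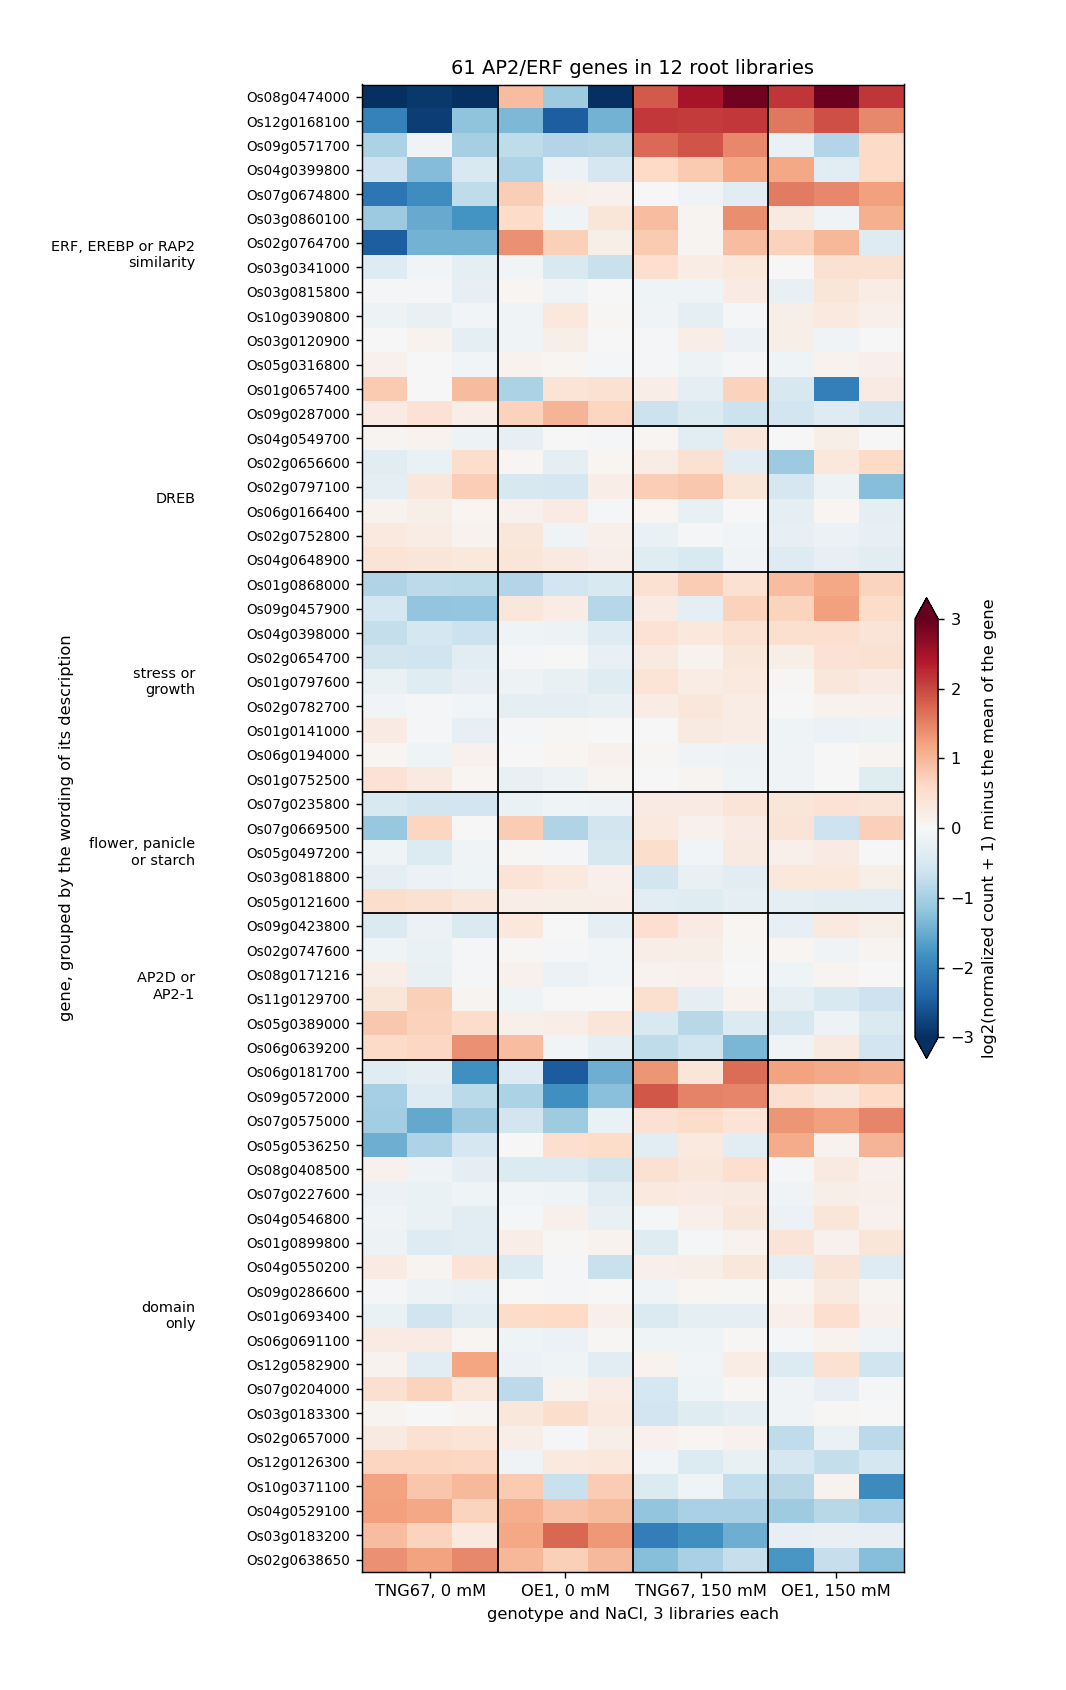
Each row is 1 of the 61 AP2/ERF genes and each column 1 of the 12 libraries, 3 per genotype and NaCl level in mM. The colour gives log2(normalized count + 1) minus the mean of that gene over the 12 libraries, clipped at 3 in either direction, and rows are grouped by the wording of the description and ordered by the difference between NaCl levels. Most rows are pale, and the strongest colours are in the ERF, EREBP or RAP2 similarity group and in the group described by its domain only.

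A differentially expressed gene (DEG) had to pass an adjusted p of 0.05 (limma, Benjamini-Hochberg over all 24922 genes) and a log2 fold change of 1 in either direction, on the scale log2(normalized count + 1). In total, 23 members were DEGs in at least 1 comparison or had a NaCl response that differed between the genotypes, and 38 were neither. No such count was made over all genes, so the 23 are not set against a background. Of those 23, 8 had a mean below 20. With few reads the added 1 makes the fold change smaller than the ratio of the counts.

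The first comparison asked which members differed between OE1 and TNG67 without added salt. Higher expression in OE1 was found for 4 members and lower expression for none, so that 6.56% of the members were DEGs. Among all 24922 genes the share was 5.26%, with 2.37% higher and 2.89% lower. The members had a median log2 fold change of 0.02 and all genes one of -0.02. The 61 members thus gave few DEGs, in a proportion near that of the whole transcriptome. The 4 genes were Os07g0674800, Os03g0860100 and Os02g0764700, whose descriptions name similarity to EREBP, ERF2 and ERF4, and Os05g0536250, described only by its AP2 domain. In Arabidopsis, ERF2 is an activator of GCC-box genes and ERF4 is a repressor with an EAR motif. In bulk root tissue, a higher level in each cell and more cells that express the gene cannot be told apart.

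Os07g0674800 differed between the genotypes with and without salt. Untreated roots had normalized counts of 6.72, 8.48 and 19.3 in TNG67 and of 56.3, 37.4 and 36.5 in OE1. Treated roots had 33.3, 31.3 and 26.7 in TNG67 and 99.9, 92.4 and 79.4 in OE1. All OE1 libraries lay above all TNG67 libraries at the same NaCl level, and within each genotype all treated libraries lay above all untreated ones. The difference was 3.77-fold at 0 mM NaCl (log2 fold change 1.93 ± 0.31, SE, limma adjusted p = 0.000192) and 2.98-fold at 150 mM NaCl (1.54 ± 0.31, SE, limma adjusted p = 0.00104).

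The ERF2-like gene Os03g0860100 had normalized counts of 14.5, 10.6 and 8.58 in TNG67 and 47.4, 29.3 and 41.7 in OE1 at 0 mM NaCl. The groups did not overlap, and expression was 3.51-fold higher in OE1 (log2 fold change 1.73 ± 0.35, SE, limma adjusted p = 0.00162). Under salt the counts were 62.3, 34.2 and 86.8 in TNG67 and 39.0, 30.1 and 68.2 in OE1. Here the genotypes overlapped, and the log2 fold change was -0.39 ± 0.35 (SE).

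The ERF4-like gene Os02g0764700 was almost unread in untreated wild-type roots. TNG67 libraries held 0, 1 and 1 reads at 0 mM NaCl, while OE1 libraries held 12, 8 and 5, with normalized counts of 13.2, 8.08 and 5.22. The ratio of the group totals was 12.1, with an exact 95% counting interval of 3.02 to 106 that covers counting error only. It was a DEG (log2 fold change 2.52 ± 0.55, SE, limma adjusted p = 0.00271). Under salt the normalized counts were 8.53, 4.88 and 9.54 in TNG67 and 7.99, 10.04 and 3.21 in OE1, with full overlap.

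Os05g0536250 had normalized counts of 3.36, 5.30 and 7.51 in TNG67 and 11.03, 16.2 and 16.7 in OE1 at 0 mM NaCl. The groups did not overlap and expression was 2.71-fold higher in OE1 (log2 fold change 1.32 ± 0.39, SE, limma adjusted p = 0.0213). The call was lost when TNG67 replicate 1 (1.07, limma adjusted p = 0.0942), OE1 replicate 2 (1.24, limma adjusted p = 0.0648) or OE1 replicate 3 (1.22, limma adjusted p = 0.0697) was left out. Under salt the counts were 8.53, 13.7 and 8.59 in TNG67 and 25.0, 12.1 and 23.3 in OE1, and the groups overlapped. Its NaCl response in TNG67 passed only without untreated replicate 3 (1.07, limma adjusted p = 0.0447).

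Os08g0474000, similar to RAP2.6, showed a wide spread within a group. In OE1 at 0 mM NaCl it had normalized counts of 43.0, 10.1 and 0 from 39, 10 and 0 reads, against 1, 2 and 1 reads in TNG67. The groups overlapped and the gene was not a DEG (log2 fold change 1.72 ± 1.12, SE, limma adjusted p = 0.325). Leaving out OE1 replicate 3, the library at 0, gave a log2 fold change of 3.21 with a limma adjusted p of 0.000486.

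The same question was then asked under salt. At 150 mM NaCl, 2 members were higher and 3 lower in OE1, which is 8.2% of the members. The share over all genes was 5.93%, with 2.44% higher and 3.49% lower, so the members again stood near the background. Their median log2 fold change was -0.05, and that of all genes was -0.00. Os07g0674800 was the only member that was a DEG between the genotypes at both NaCl levels, so 25% of the DEGs at 0 mM and 20% of those at 150 mM NaCl were shared, against 43.2% and 38.4% over all genes. The other DEGs at 150 mM NaCl were Os03g0183200, which was higher, and Os09g0571700, Os09g0572000 and Os02g0797100, which were lower.

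Os03g0183200 encodes an AP2 domain protein. Under salt it had normalized counts of 36.7, 43.0 and 56.3 in TNG67 and 133, 135 and 132 in OE1. The groups stood well apart, and expression was 2.94-fold higher in OE1 (log2 fold change 1.55 ± 0.18, SE, limma adjusted p = 5.61e-06). At 0 mM NaCl the counts were 299.9, 251 and 192 in TNG67 and 353, 519 and 390.1 in OE1, again without overlap, but the log2 fold change of 0.77 ± 0.18 (SE) stayed below the threshold. Os03g0183300, the next gene listed on chromosome 3 and also a family member, was higher in OE1 at both levels to a smaller extent. Its means were 5255 ± 205 and 6655 ± 607 at 0 mM NaCl and 3833 ± 356 and 5009 ± 276 (SD, n = 3) at 150 mM NaCl in TNG67 and OE1, with log2 fold changes of 0.34 and 0.39. How reads shared by neighbouring or similar genes were counted is not given in the sources used here.

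A second pair of neighbours was lower in OE1 under salt. Os09g0571700, similar to ERF096, and Os09g0572000, described by its ERF domain, follow each other in the list of genes on chromosome 9. With salt the normalized counts of Os09g0571700 were 46.9, 53.7 and 39.1 in TNG67 and 11.99, 7.03 and 20.9 in OE1. Those of Os09g0572000 were 169.7, 131 and 129 in TNG67 and 66.0, 58.2 and 69.8 in OE1. Neither gene had overlapping groups, and the log2 fold changes were -1.84 ± 0.38 (SE, limma adjusted p = 0.00145) and -1.13 ± 0.24 (SE, limma adjusted p = 0.00209). Without TNG67 replicate 1 the value for Os09g0572000 was -0.998 and just inside the fold change threshold. At 0 mM NaCl the groups overlapped for both genes.

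Os02g0797100, similar to DREB2B, was also lower in OE1 under salt. In Arabidopsis, DREB2 proteins activate genes of the drought and salt responses. Its normalized counts were 32.4, 34.2 and 24.8 in TNG67 and 12.99, 17.1 and 7.22 in OE1 at 150 mM NaCl, without overlap (log2 fold change -1.29 ± 0.35, SE, limma adjusted p = 0.0112). Without OE1 replicate 3 the log2 fold change was -0.97 and the limma adjusted p was 0.0658. At 0 mM NaCl the counts were 15.7, 24.4 and 32.2 in TNG67 and 13.2, 13.1 and 21.9 in OE1, and the groups overlapped.

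**Figure D2:**
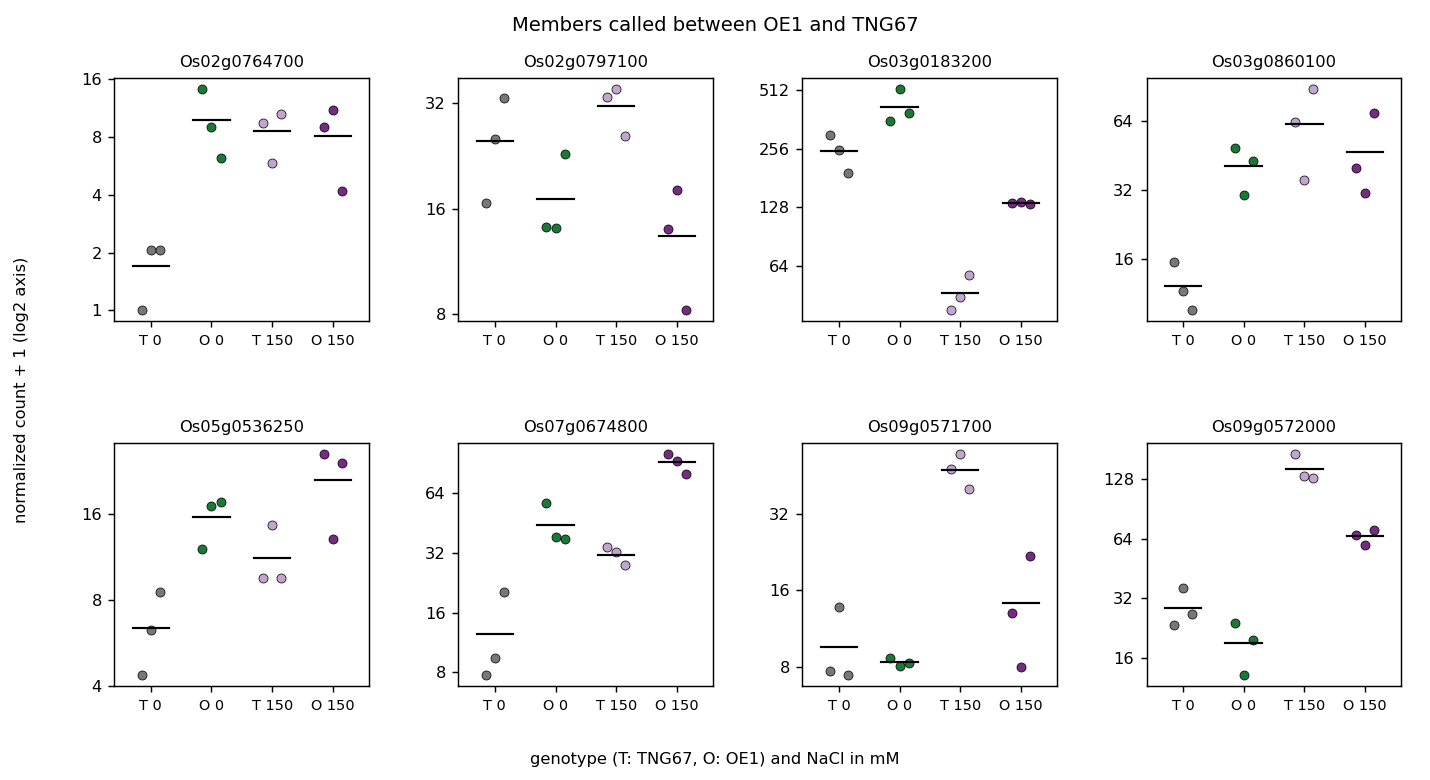
Each panel is 1 of the 8 AP2/ERF genes that were DEGs between OE1 and TNG67 at either NaCl level. Points are single libraries, bars are group means (n = 3), and the vertical axis is the normalized count plus 1 on a log2 scale. Os07g0674800 is higher in OE1 at both NaCl levels, whereas Os02g0764700 and Os03g0860100 differ at 0 mM NaCl and Os09g0571700 and Os09g0572000 at 150 mM NaCl.

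Smaller genotype differences were also found. A further 15 members at 0 mM NaCl and 11 at 150 mM NaCl had a limma adjusted p below 0.05 without reaching the fold change threshold. At any fold change, 19 and 16 of the 61 members passed that adjusted p at 0 and 150 mM NaCl. Of all 24922 genes, 5493 and 6419 did so. Os01g0693400, described by its ERF domain, had means of 249.7 ± 34.5 in TNG67 and 434 ± 71.0 in OE1 at 0 mM NaCl, and of 254 ± 16.0 and 385 ± 59.5 at 150 mM NaCl (SD, n = 3). Os03g0818800, which the description links to inflorescence architecture and floral meristems, had means of 216 ± 10.4 and 304 ± 27.3 at 0 mM NaCl and of 194 ± 23.0 and 299 ± 17.2 at 150 mM NaCl (SD, n = 3). For both genes the OE1 libraries lay above the TNG67 libraries at each NaCl level, with log2 fold changes between 0.49 and 0.79. The OE1 effects at 0 and 150 mM NaCl come from separate libraries, and the panels of log2 fold changes set them beside each other for all members.

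**Figure D3:**
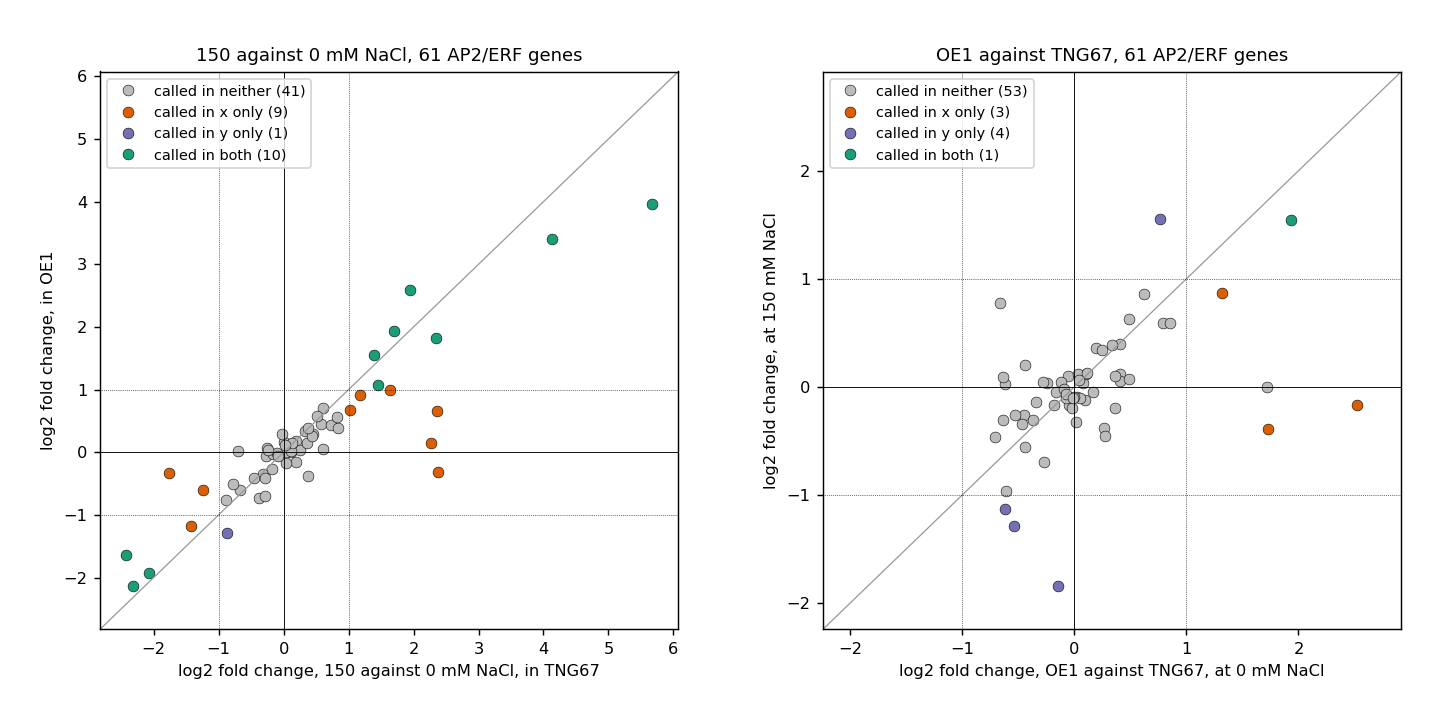
Each point is 1 of the 61 AP2/ERF genes. On the left, the log2 fold change of 150 against 0 mM NaCl in OE1 is plotted against that in TNG67, and on the right, the log2 fold change of OE1 against TNG67 at 150 mM NaCl is plotted against that at 0 mM NaCl. Dotted lines mark a log2 fold change of 1 in either direction, the grey line marks equal values, and colours give the comparison in which a gene was a DEG. On the left 10 genes were DEGs in both genotypes, and on the right 1 gene was a DEG at both NaCl levels.

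The NaCl comparisons asked which members responded to 24 h of salt in each genotype. In TNG67, 13 members rose and 6 fell, which is 31.1% of the members, against 19.3% of all genes (9.53% higher and 9.75% lower). In OE1, 7 rose and 4 fell, which is 18% of the members, against 12.5% of all genes (6.66% higher and 5.84% lower). In both genotypes the share of members was above the background, mainly through increases. Among 22 genes with family wording that the rule did not match, 1 rose and 3 fell in TNG67, and 2 fell in OE1. Their shares, 18.2% and 9.09%, were below those of all genes, and no difference was tested. The median log2 fold change was 0.12 in TNG67 and 0.06 in OE1 for the members, and 0.00 and 0.01 for all genes. Of the responses of the members, 7 increases and 3 decreases were shared by both genotypes. A further 9 were DEGs in TNG67 alone, 1 was a DEG in OE1 alone and none went in opposite directions. The shared genes were 52.6% of the TNG67 list and 90.9% of the OE1 list, against 52.1% and 80.4% over all genes. A call in TNG67 alone does not show that the genotypes differ, and the test of that difference is given further on.

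The NaCl DEGs were spread over 4 of 6 groups formed from the wording of the descriptions. Among the 14 members described by similarity to a numbered ERF, an EREBP or a RAP2 protein, 7 rose and none fell in TNG67, with a median log2 fold change of 1.03, and in OE1 3 rose and 1 fell. Among the 9 members with a stress or growth role in the description, 3 rose in TNG67 and 1 in OE1. Of the 21 members described by their domain only, 3 rose and 4 fell in TNG67, and 3 rose and 3 fell in OE1. Of the 6 members similar to AP2D or AP2-1 proteins, 2 fell in TNG67 and none was a DEG in OE1. None of the 6 DREB-type members and none of the 5 with a role in flowers, panicles or starch was a NaCl DEG in either genotype. Over all genes 19.3% were NaCl DEGs in TNG67 and 12.5% in OE1, and with so few members no difference was tested. The DREB-type group took only descriptions with DREB or TINY. Genes with dehydration-responsive element-binding protein only written out were not matched by the rule.

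The 2 genes similar to RAP2.6 had the largest increases. RAP2.6 of Arabidopsis is an ERF whose transcript is induced by salt and abscisic acid. Os12g0168100 had 4, 2 and 8 reads in untreated TNG67, a mean normalized count of 5.06 ± 3.27 (SD, n = 3), and normalized counts of 96.4, 93.8 and 95.4 at 150 mM NaCl. In OE1 the counts were 7.72, 3.03 and 7.30 at 0 mM and 66.0, 84.4 and 59.4 at 150 mM NaCl. All treated libraries lay far above all untreated ones. The increase was 18.8-fold in TNG67 (log2 fold change 4.14 ± 0.38, SE, limma adjusted p = 3.09e-08) and 11.6-fold in OE1 (3.40 ± 0.38, SE, limma adjusted p = 7.46e-07).

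Os08g0474000 rose in TNG67 from the 1, 2 and 1 reads above to 96, 131 and 179 reads, with normalized counts of 81.9, 128 and 171. With 4 reads in the untreated group the ratio of the group totals was 86.6, with an exact 95% counting interval of 33.6 to 319. In OE1 its counts went from 43.0, 10.1 and 0 to 101, 176 and 101. Treated and untreated groups did not overlap in either genotype. The log2 fold changes were 5.68 ± 1.12 (SE, limma adjusted p = 0.00209) in TNG67 and 3.96 ± 1.12 (SE, limma adjusted p = 0.0206) in OE1. The call in OE1 was lost without the treated replicate 2 (3.70, limma adjusted p = 0.0618), and without the untreated replicate 3, which read 0, the log2 fold change was 2.47. The same library decided whether the NaCl response differed between the genotypes (-1.72 with it, limma adjusted p = 0.549, and -3.21 without it, limma adjusted p = 0.00819).

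OsERF2 (Os06g0181700), an ERF known to act in rice root architecture, rose in both genotypes. Its normalized counts went from 7.83, 8.48 and 2.15 to 27.3, 13.7 and 35.3 in TNG67 and from 7.72, 1.01 and 3.13 to 25.0, 24.1 and 23.3 in OE1. The groups did not overlap, and the log2 fold changes were 1.95 ± 0.53 (SE, limma adjusted p = 0.00454) and 2.59 ± 0.53 (SE, limma adjusted p = 0.000688). Os07g0575000, described by its ERF domain, went from 12.3, 8.48 and 11.8 to 36.7, 39.1 and 35.3 in TNG67 and from 17.7, 12.1 and 22.9 to 67.0, 63.3 and 73.8 in OE1. It rose 3.41-fold and 3.87-fold, and under salt all OE1 libraries lay above all TNG67 libraries (log2 fold change 0.86 ± 0.27, SE, below the threshold).

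Os01g0868000, which the description links to abiotic and salt stress, had normalized counts of 34.7, 38.2 and 37.5 at 0 mM and 91.2, 113 and 90.6 at 150 mM NaCl in TNG67. In OE1 they were 35.3, 44.4 and 48.0 at 0 mM and 126, 149 and 106 at 150 mM NaCl. The gene rose 2.67-fold in TNG67 (log2 fold change 1.39 ± 0.19, SE, limma adjusted p = 4.06e-06) and 2.98-fold in OE1 (1.55 ± 0.19, SE, limma adjusted p = 2.02e-06). No treated library overlapped an untreated one.

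Os09g0572000 and Os07g0674800 completed the 7 shared increases. Os09g0572000 went from 22.4, 35.0 and 25.7 to 169.7, 131 and 129 in TNG67, which is 5.17-fold, and from 23.2, 12.1 and 18.8 to 66.0, 58.2 and 69.8 in OE1, which is 3.59-fold. Os07g0674800 rose 2.64-fold in TNG67 and 2.09-fold in OE1. Its log2 fold change in OE1 was 1.07 ± 0.31 (SE, limma adjusted p = 0.00927) and lay between 0.96 and 0.99 without untreated replicate 2, untreated replicate 3 or treated replicate 1.

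The increases that were DEGs in TNG67 alone included 3 genes that also differed between the genotypes at 1 NaCl level. Each of these genotype comparisons shares TNG67 libraries with the NaCl comparison. Os03g0860100 rose 5.43-fold (log2 fold change 2.27 ± 0.35, SE, limma adjusted p = 2.17e-05), Os02g0764700 rose from 0, 1.06 and 1.07 to 8.53, 4.88 and 9.54 (2.37 ± 0.55, SE, limma adjusted p = 0.00117, ratio of the group totals 10.7 with an exact 95% counting interval of 2.66 to 92.9) and Os09g0571700 rose 5.40-fold (2.35 ± 0.38, SE, limma adjusted p = 3.57e-05). In OE1 their log2 fold changes were 0.15, -0.31 and 0.65, and treated and untreated libraries overlapped.

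Os04g0399800, similar to the Arabidopsis repressor ERF12, went from 5.60, 3.18 and 6.44 to 14.5, 16.6 and 21.9 in TNG67 (log2 fold change 1.64 ± 0.43, SE, limma adjusted p = 0.00348). In OE1 it went from 4.41, 8.08 and 6.26 to 22.0, 7.03 and 14.4, and these groups overlapped. Leaving out treated OE1 replicate 2 made the gene a DEG in OE1 as well (1.41, limma adjusted p = 0.0193).

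Os09g0457900, linked by its description to internode elongation, went from 5.60, 3.18 and 3.22 to 10.2, 6.84 and 14.3 in TNG67 (log2 fold change 1.18 ± 0.44, SE, limma adjusted p = 0.0296). The call was lost without untreated replicate 2 (1.07), untreated replicate 3 (1.07), treated replicate 1 (1.17) or treated replicate 3 (0.94). It was also lost with DESeq2 on all libraries (1.40, adjusted p = 0.0577). Os04g0398000, an ERF linked to drought response and innate immunity, went from 494, 562 and 515 to 1094, 1000.04 and 1105. Its log2 fold change of 1.03 ± 0.08 (SE, limma adjusted p = 5.41e-09) was close to the threshold. It was 0.98 without untreated replicate 1, 0.9997 without treated replicate 3 and 0.99 with equal totals per library. In OE1 the same gene had a log2 fold change of 0.67.

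**Figure D4:**
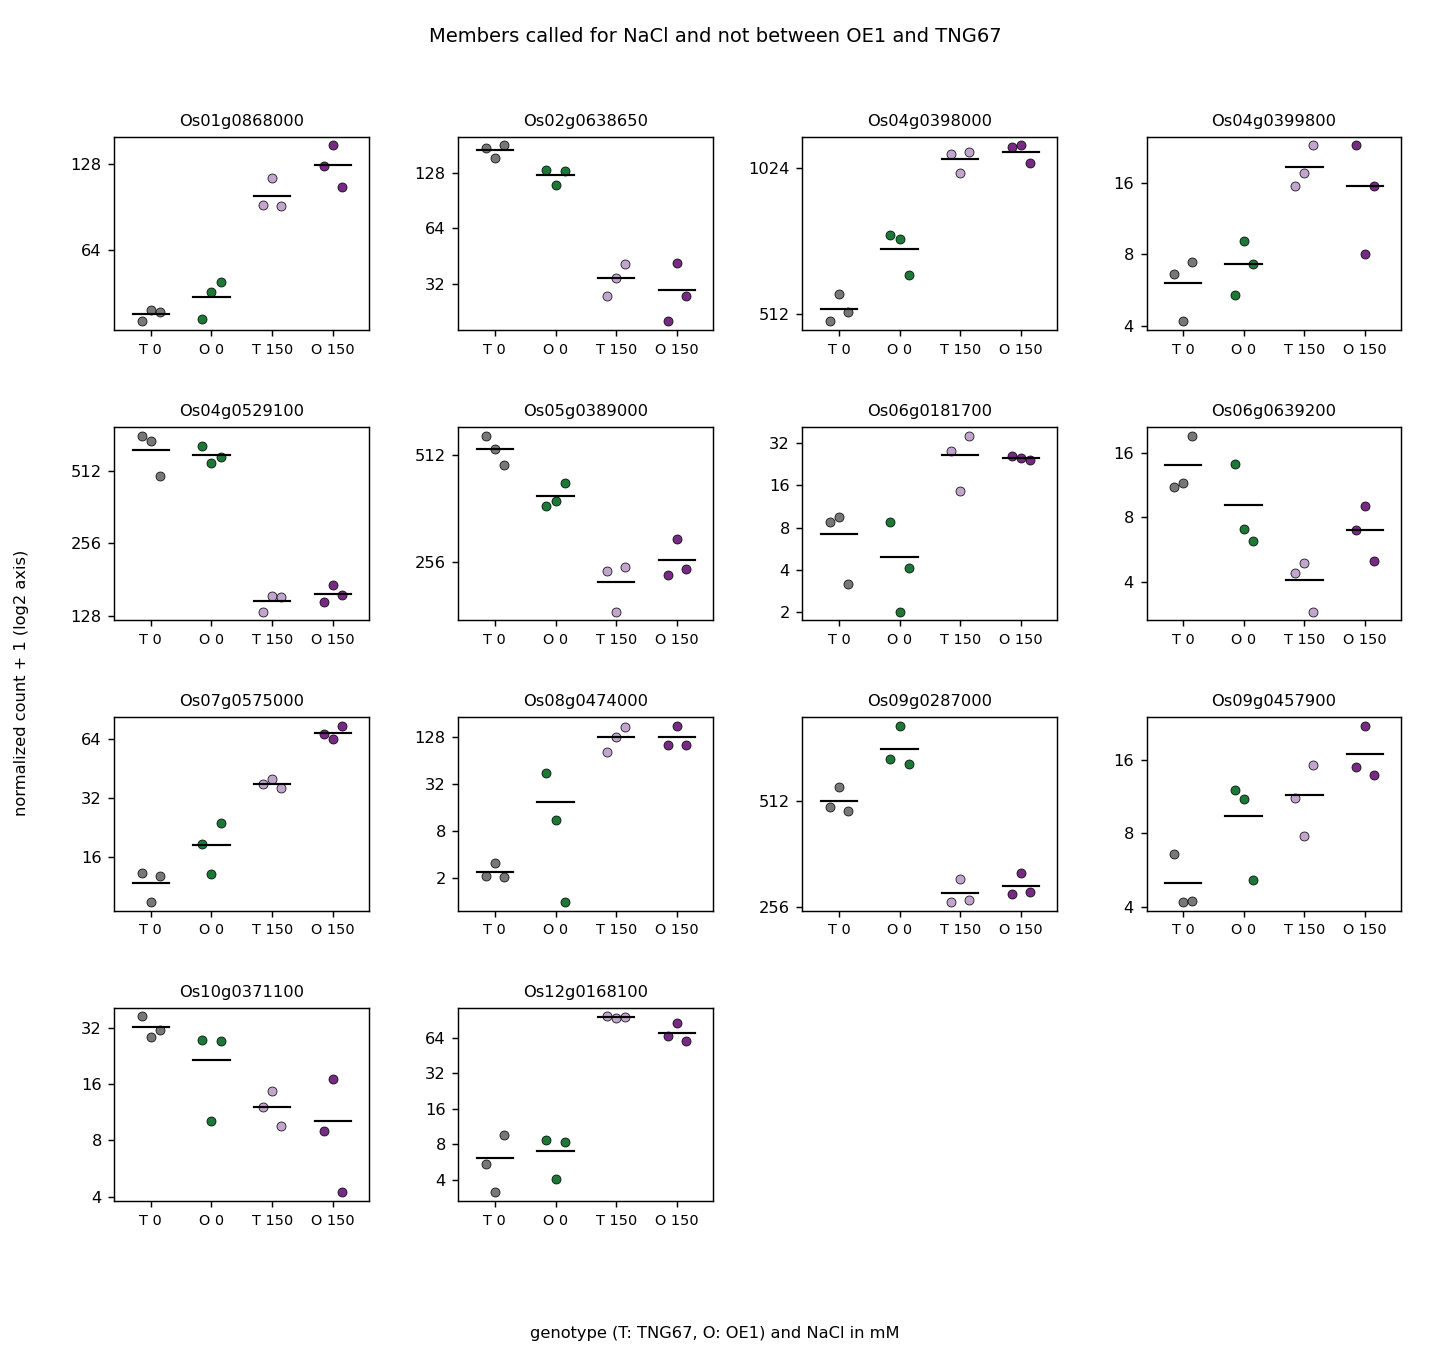
Each panel is 1 of the 14 AP2/ERF genes that were NaCl DEGs in TNG67 or OE1 and were not DEGs between the genotypes. Points are single libraries, bars are group means (n = 3), and the vertical axis is the normalized count plus 1 on a log2 scale. The increases of Os08g0474000 and Os12g0168100 span the widest range, and Os02g0638650 and Os04g0529100 fell in both genotypes.

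The decreases shared by both genotypes came from 3 genes described by their domain. Os04g0529100, described by its ERF domain, had normalized counts of 716, 679 and 485 at 0 mM and 132, 153 and 153 at 150 mM NaCl in TNG67, and of 649.9, 552 and 585 and 145, 171 and 155 in OE1. It fell by 2.08 ± 0.13 (SE, limma adjusted p = 2.06e-10) in TNG67 and by 1.92 ± 0.13 (SE, limma adjusted p = 1.32e-09) in OE1 on the log2 scale. All treated libraries of both genotypes lay below all untreated ones.

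Os02g0638650, an ERF domain gene, went from 172, 153 and 179 to 26.4, 33.2 and 40.1 in TNG67 and from 131, 109 and 129 to 19.0, 40.2 and 26.5 in OE1. The log2 fold changes were -2.32 ± 0.23 (SE, limma adjusted p = 9.39e-08) and -2.13 ± 0.23 (SE, limma adjusted p = 5.46e-07). Os03g0183200, the gene that was higher in OE1 under salt, fell in both genotypes, with log2 fold changes of -2.42 ± 0.18 (SE, limma adjusted p = 2.96e-09) in TNG67 and -1.63 ± 0.18 (SE, limma adjusted p = 9e-07) in OE1.

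Among the decreases in TNG67 alone was SMOS1 (Os05g0389000, also RLA1), an AP2 protein that controls organ size and leaf angle in rice. Its normalized counts went from 578, 531 and 479 to 241, 186 and 247 in TNG67 and from 366, 379.6 and 426 to 236, 296 and 244 in OE1. Treated and untreated libraries did not overlap in either genotype. The log2 fold change was -1.24 ± 0.12 (SE, limma adjusted p = 8.39e-08) in TNG67 and -0.60 ± 0.12 (SE, limma adjusted p = 0.00064) in OE1, and at 0 mM NaCl OE1 was lower than TNG67 by 0.44 on this scale.

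Decreases were also found in 3 further members. Os06g0639200, similar to AP2D22, went from 10.1, 10.6 and 18.2 to 3.41, 3.91 and 1.91 in TNG67 (log2 fold change -1.76 ± 0.47, SE, limma adjusted p = 0.00357) and from 13.2, 6.06 and 5.22 to 5.996, 8.03 and 4.01 in OE1, where the groups overlapped. Os10g0371100, an AP2 domain gene, went from 35.8, 27.6 and 30.0 to 11.1, 13.7 and 8.59 in TNG67 (-1.42 ± 0.46, SE, limma adjusted p = 0.0148), and lost the call without untreated replicate 1 (limma adjusted p = 0.0523) or treated replicate 3 (limma adjusted p = 0.0527). In OE1 its log2 fold change was -1.18 ± 0.46 (SE, limma adjusted p = 0.0524). It became a DEG there without untreated replicate 2 (-1.66) or treated replicate 2 (-1.67). With all libraries it was a DEG in OE1 with DESeq2 (-1.20, adjusted p = 0.0497) and with edgeR (-1.23, adjusted p = 0.0443). Os09g0287000, similar to ERF5, was the DEG in OE1 alone, going from 672, 836 and 652 to 278, 317 and 281 (-1.29 ± 0.11, SE, limma adjusted p = 1.6e-08), while in TNG67 it went from 492, 559.7 and 477 to 263, 305 and 266 (-0.87 ± 0.11, SE).

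Whether the NaCl response itself differed between the genotypes was tested as an interaction, with an adjusted p below 0.05 alone. The response was more positive in OE1 for 2 members and more negative for 3, which is 8.2% of the members, against 11.4% of all genes (5.2% more positive and 6.17% more negative). With so few members, the difference between these shares was not tested. The 3 genes with a more negative response all belong to the ERF, EREBP or RAP2 similarity group. All were also increases in TNG67, but this test subtracts the TNG67 response, so the results share libraries and are not independent.

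For Os03g0860100 the NaCl response in OE1 minus that in TNG67 was -2.12 ± 0.49 on the log2 scale (SE, limma adjusted p = 0.0106), and it held in all 12 fits that left out 1 library. In group means, TNG67 went from 11.2 to 61.1, while OE1 went from 39.5 to 45.8, so the untreated OE1 roots were already well above untreated TNG67 roots. Os02g0764700 had the same arrangement of groups, with means of 0.711 and 7.65 in TNG67 and 8.84 and 7.08 in OE1 (-2.68 ± 0.77, SE, limma adjusted p = 0.031). Its adjusted p ranged from 0.0516 to 0.0901 without untreated TNG67 replicate 1, untreated OE1 replicates 1 or 2, treated TNG67 replicates 1 or 3, or treated OE1 replicate 3, each left out in turn with limma.

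Os09g0571700 had another arrangement, with means of 8.62 and 46.6 in TNG67 and 7.36 and 13.3 in OE1, so that the genotypes differed after salt and not before. The difference of the responses was -1.70 ± 0.54 on the log2 scale (SE, limma adjusted p = 0.048). It passed the threshold only without untreated TNG67 replicate 2, treated TNG67 replicate 3 or treated OE1 replicate 3 among the 12 fits that left out 1 library, and its adjusted p reached 0.12 without treated OE1 replicate 2 (-1.34, limma). For the neighbour Os09g0572000 the difference was -0.51 ± 0.34 (SE, limma adjusted p = 0.368).

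The 2 members with a more positive response in OE1 were SMOS1 and RSR1. For SMOS1 the difference was 0.64 ± 0.17 on the log2 scale (SE, limma adjusted p = 0.0215), and it lost the threshold without untreated TNG67 replicate 1, untreated OE1 replicate 1, treated TNG67 replicate 2 or treated OE1 replicate 2, with limma adjusted p between 0.0545 and 0.0659. RSR1 (Os05g0121600), an AP2 protein that restrains starch synthesis genes in rice seeds, was the member with the most reads. Its normalized counts were 9633, 9070.3 and 8446 in TNG67 and 7651, 7544 and 7659.6 in OE1 at 0 mM NaCl. With salt they were 5242, 5164 and 5387 in TNG67 and 5452, 5370.3 and 5331 in OE1. The genotypes were apart before treatment and overlapped after it, and the difference of the responses was 0.28 ± 0.08 (SE, limma adjusted p = 0.0308). Among the 12 fits that left out 1 library it kept the threshold only without untreated or treated TNG67 replicate 3, and its limma adjusted p reached 0.0974 without untreated TNG67 replicate 1.

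Other calls were missed in the main fit and made without single libraries or with another method. The NaCl response of Os03g0183200 differed by 0.79 ± 0.26 on the log2 scale (SE, limma adjusted p = 0.0539), and by 0.95 to 0.96 with an adjusted p below 0.05 without untreated OE1 replicate 2, untreated TNG67 replicate 3 or treated TNG67 replicate 3. With all libraries it passed with DESeq2 (0.79, adjusted p = 0.0363) and with equal totals (0.85, limma adjusted p = 0.0387). The NaCl response of Os04g0398000 differed by -0.35 (limma adjusted p = 0.0557), and passed without untreated OE1 replicate 3 (-0.44), untreated TNG67 replicate 2 (-0.41) or treated TNG67 replicate 2 (-0.40). With all libraries it passed with DESeq2 (-0.36, adjusted p = 0.0489) and with edgeR (-0.37, adjusted p = 0.0426). Os01g0141000, an AP2/ERF and B3 domain gene linked to salt stress, passed only without untreated TNG67 replicate 1 (-0.47, limma adjusted p = 0.028).

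Several prominent members stayed below the fold change threshold. OsERF71 (Os06g0194000), described as acting in drought resistance and lignin biosynthesis, had means of 3785 ± 342 in TNG67 and 3885 ± 173 in OE1 at 0 mM NaCl, and of 3556 ± 222 and 3723 ± 239 at 150 mM NaCl (SD, n = 3). All 4 groups overlapped with their counterparts, and the log2 fold changes lay between -0.09 and 0.07. OsERF48 (Os08g0408500), known to promote root growth and drought tolerance, had means of 1349 ± 204 and 1041 ± 55.1 at 0 mM NaCl and of 1919 ± 103 and 1552 ± 154 at 150 mM NaCl (SD, n = 3) in TNG67 and OE1. Its libraries did not overlap in any of these comparisons, with log2 fold changes of 0.52 and 0.57 for NaCl and of -0.36 and -0.31 for OE1, all with a limma adjusted p of at most 0.0229 and below the fold change threshold.

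Os02g0782700, linked by its description to defence and abiotic stress, showed a similar arrangement at a smaller scale. Its means were 5263 ± 44.6 and 4641 ± 119 at 0 mM NaCl and 6624 ± 312 and 5881 ± 234 (SD, n = 3) at 150 mM NaCl, with log2 fold changes of 0.33 and 0.34 for NaCl and -0.18 and -0.17 for OE1. Os04g0648900 is similar to DREB2F and had the highest mean of the 6 members with DREB or TINY in the description. It had means of 1564 ± 49.2 and 1472 ± 86.4 at 0 mM NaCl and of 986 ± 125 and 971 ± 55.1 at 150 mM NaCl (SD, n = 3). Its NaCl log2 fold changes were -0.67 in TNG67 and -0.60 in OE1, and the genotypes overlapped. Across the 6 DREB-type members the NaCl log2 fold changes ran from -0.67 to 0.37 in TNG67 and from -0.60 to 0.17 in OE1.

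The same counts were made for genes around the members. Of the 17 genes whose description names another protein, none was a DEG between the genotypes, where the background was 5.26% at 0 mM and 5.93% at 150 mM NaCl, and 9 and 5 had an unadjusted limma p below 0.05. In each genotype 1 rose and 1 fell with NaCl, which is 11.8%, against 19.3% of all genes in TNG67 and 12.5% in OE1. These were Os05g0269500, a HAP2-GCS1 gene, and Os07g0158500, a HAP2 subunit. The log2 fold change of Os05g0269500 in OE1 was 1.06, and it lost the call without untreated replicate 2 (0.63), treated replicate 2 (0.86) or treated replicate 3 (1.04). That of Os07g0158500 was -1.11 in TNG67 and -1.13 in OE1, and was -0.86 or -0.93 without untreated or treated TNG67 replicate 1 and -0.94 without untreated OE1 replicate 1. The phosphatase gene Os01g0666000 had a log2 fold change of -1.15 in OE1 at 150 mM NaCl and was not a DEG over the 12 libraries. It was lower in OE1 without untreated OE1 replicate 1 or 3 (-1.15) or treated OE1 replicate 2 (-1.38), with limma on the 6 libraries of the comparison (-1.15, adjusted p = 0.0256), with DESeq2 (-1.20, adjusted p = 0.0464) and with edgeR (-1.20, adjusted p = 0.031). Another 22 genes have family wording that the rule did not match, such as ethylene response factor, RAV or dehydration-responsive element-binding protein written out. Of these, 1 was higher and 2 lower in OE1 at 0 mM NaCl, 1 higher and 1 lower at 150 mM NaCl, 1 rose and 3 fell with NaCl in TNG67, and 2 fell in OE1. These are 13.6%, 9.09%, 18.2% and 9.09% of the 22 genes, beside 6.56%, 8.2%, 31.1% and 18% of the members. Over all genes the shares were 5.26%, 5.93%, 19.3% and 12.5%. The median NaCl log2 fold change of the 22 genes was -0.28 in TNG67 and -0.19 in OE1. With so few genes no difference was tested. A list of 14 genes was selected by words of ethylene perception and signalling, which acts upstream of many ERFs. Its matches include a cystinosin repeat gene and Os01g0128300, described only as similar to a predicted protein. The list held no DEG in any of the 4 pairwise comparisons. At an unadjusted limma p below 0.05 it held 4 genes at 0 mM and 4 at 150 mM NaCl between the genotypes, and 8 in TNG67 and 6 in OE1 for NaCl. Of all 24922 genes, 8559, 9177, 14728 and 11461 did so in the same order. With only 14 genes in the list, no difference between these shares was tested. Its receptor gene ETR3 (Os02g0820900) and the CTR1-like kinase gene Os08g0103000 had NaCl responses that differed between the genotypes, by 0.47 and -0.75 on the log2 scale, which is 14.3% of the list, against 11.4% of all genes.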

How the data were processed

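Trimmomatic 0.38, HISAT2 2.1.0 and the IRGSP-1.0 build are named in the submitters' processing notes. The authors deposited normalized counts (signal values, reads divided by a size factor per library) in a table for each NaCl level. The counting tool and the normalization are not given in the sources used here. All values were whole multiples of 1 read within 0.001 reads. Median-ratio factors over the 12 libraries matched the implied size factors within 0.0896%, so both tables were taken to share a scale. The lowest replicate correlation was 0.986.

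The 24922 genes in both tables were fitted with limma 3.58.1 (R 4.3.3, trend, robust) on log2(normalized count + 1) over 12 libraries in 4 groups, with Benjamini-Hochberg adjusted p-values per comparison, which measure the spread between pools of seedlings. The fit was tested on simulated data, with planted changes beyond the fold change threshold in genes with a mean of at least 20 reads. That test does not cover members with fewer reads. Alternatives were DESeq2 1.42.0 and edgeR 4.0.16 (TMM) on recovered reads, limma on 6 libraries, a mean of at least 20, no fold change threshold, a pseudocount of 0.1, equal totals, a block for replicate number and each library left out. Counting all 78 genes was added after seeing the data.

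The members and lists were chosen with earlier results of these data known. Members were named if the study gives their identifier, if among the 6 largest non-overlapping DEGs per direction and comparison, the 6 smallest interaction p or the 6 highest means, or if neighbours or genes named in the gene table were DEGs. Os01g0141000, Os01g0693400, Os03g0818800, Os04g0398000, Os04g0399800, Os09g0457900 and genes that are no members were named after their values were seen. Groups of descriptions were formed after the files were seen, since groups written earlier misplaced some ERF genes. A gene table of assembly ASM3414082v1 matched 57 of the 78 genes and gave the names RSR1, SMOS1 and RLA1. Its build differs from that of the files, so no coordinates are given.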

Additional observations from a re-analysis of the deposited data

Results flagged for a closer look

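The NaCl response differed between OE1 and TNG67 for 5 AP2/ERF members and for 2 of the genes whose description names another protein, by the limma test of the difference. On the log2 scale, the OE1 response minus the TNG67 response was -2.68 for Os02g0764700, -2.12 for Os03g0860100, -1.70 for Os09g0571700, 0.28 for Os05g0121600 (RSR1) and 0.64 for Os05g0389000 (SMOS1). It was -0.53 for Os01g0693300, described as a lipid phosphate phosphatase, and -0.46 for Os02g0643000, described as similar to VAP27. Of these 7 values, those of Os03g0860100, Os01g0693300 and Os02g0643000 held in each of the 12 fits that left out 1 library.

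Another 4 genes with family wording were listed at 1 NaCl level only and entered no comparison. Their mean normalized counts over 6 libraries were 21.2 for Os02g0676800, similar to DREB1E, and 9.28 for Os08g0173700, similar to ERF4, both listed at 0 mM NaCl, and 6.84 for Os04g0547600 and 6.35 for Os05g0437100, both with an ERF domain and listed at 150 mM NaCl. For Os02g0676800 the libraries held 18, 10 and 22 reads in TNG67 and 31, 26 and 12 in OE1, with overlap. Their levels at the other NaCl level were not analysed here.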

How the results depend on the processing

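Of 2417 values of the 25 members named by rule under the alternatives, 2331 kept their direction and their side of the threshold, 37 passed it only under the alternative, 49 lost it and none reversed. Without the fold change threshold, 13 members were higher and 6 lower in OE1 at 0 mM NaCl, 8 and 8 at 150 mM NaCl, and 23 rose and 12 fell with NaCl in TNG67, and 15 and 11 in OE1, by the construction of that alternative. In the same order, 19, 16, 35 and 26 of the 61 members passed, against 5493, 6419, 13589 and 9667 of all 24922 genes. With a mean of at least 20, 2 members were higher in OE1 at 0 mM NaCl, 8 rose in TNG67 and 1 had a more negative NaCl response in OE1. The members lost from these counts had lower means and were left out by that setting. Counting all 78 genes gave 5 more negative responses. With a replicate block, 1 member had a more positive NaCl response in OE1, with RSR1 lost (limma adjusted p = 0.055), and 3 had a more negative one, with Os09g0571700 lost (limma adjusted p = 0.0725) and Os09g0287000 gained (-0.42, limma adjusted p = 0.035). The cause was not tested. Same-numbered libraries did not deviate together (correlations from -0.10 to 0.03 over genes), so their numbers do not pair them.

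Leaving out 1 library at a time gave 0 to 3 more positive and 1 to 4 more negative responses, 3 to 4 members higher in OE1 at 0 mM NaCl, 2 higher and 2 to 3 lower at 150 mM NaCl, 11 to 13 that rose and 5 to 6 that fell in TNG67, and 6 to 7 and 4 to 5 in OE1. DESeq2 gave no adjusted p for the NaCl response difference of Os02g0764700. For Os09g0571700 that difference lost the threshold with DESeq2 (-1.55, adjusted p = 0.114), edgeR (-1.54, adjusted p = 0.103), equal totals (limma adjusted p = 0.054) and a pseudocount of 0.1 (limma adjusted p = 0.0615). Os08g0474000 was higher in OE1 at 0 mM NaCl with DESeq2 (3.62, adjusted p = 0.0223) and lost its NaCl call in OE1 with limma on 6 libraries (adjusted p = 0.129) and with a pseudocount of 0.1 (adjusted p = 0.0595). Os05g0536250 lost its OE1 call at 0 mM NaCl with DESeq2 (adjusted p = 0.0513). Depth limits the 12 members with a mean below 20, where single reads move the fold change. OE1 was 1 line and each group had 3 libraries, so effects of the line and of the transgene cannot be told apart.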
